A study of Mus musculus with 2 samples.

Results

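The genes examined here are 9 members of the fibroblast growth factor (FGF) pathway and its negative feedback, which were followed through the cells of aged mouse hindlimb muscle. They were chosen by name from a list and matched by gene symbol, and all 9 were found among the 32285 genes of the deposited matrices. The ligands are Fgf2 and Fgf7, the receptors are Fgfr1 and Fgfr4, and the feedback regulators are Spry1, Spry2, Spry4, Spred1 and Dusp6. The study used droplet-based single-cell RNA-Seq (10x Genomics) to ask how muscle of old animals responds when retinoic acid signaling is stimulated. A first library, ATRA+agonist, came from female C57Bl/6J mice of 24 months that were given 3 intramuscular injections within a week of all-trans retinoic acid (ATRA), CD3254, which activates the receptor RXR-alpha, and BMS961, which activates RAR-gamma. The other library, DMSO vehicle, came from mice of the same strain, sex and age that were injected with the solvent. Each library held the pooled cells of 2 mice, so that there was 1 library per group, no replicate and no test.

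FGFs are secreted proteins that bind receptor tyrosine kinases together with heparan sulfate chains on the cell surface. The receptors act through the adaptor FRS2 on RAS and the kinase cascade below it. Activity of this cascade induces genes of the Sprouty and SPRED families and of the phosphatase DUSP6, whose products dampen the same cascade, and these genes are often read as a sign of its activity. In muscle, FGF2 in the surroundings of muscle stem cells (MuSCs) is known to draw them out of quiescence, Spry1 is known to help keep them quiescent, and Fgfr1 and Fgfr4 are receptors of the myogenic lineage.

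Positions of the members are given on GRCm38 (GENCODE M21). Fgf2 (ENSMUSG00000037225) lies on chromosome 3 from 37348346 to 37410108, and Spry1 (ENSMUSG00000037211) on the same strand from 37639947 to 37644598. Fgf7 (ENSMUSG00000027208) lies on chromosome 2 from 126034658 to 126091185 and Spred1 (ENSMUSG00000027351) on the same chromosome from 117121374 to 117182279. Fgfr1 (ENSMUSG00000031565) lies on chromosome 8 from 25513654 to 25575718, Fgfr4 (ENSMUSG00000005320) on chromosome 13 from 55152640 to 55168759, and Spry2 (ENSMUSG00000022114) on chromosome 14 from 105891947 to 105896819. Dusp6 (ENSMUSG00000019960) lies on chromosome 10 from 99263231 to 99267489. Several members overlap genes of the other strand that are also counted in the files, and whether strand was used in counting was not given in the sources used here. Fam227b spans all of Fgf7 and had 166 UMIs (unique molecular identifiers, 1 per counted molecule) in fibro-adipogenic progenitor-like (FAP-like) cells. Nudt6 overlaps 5199 bases of Fgf2 and had 115 UMIs there.

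The injected compounds act on nuclear receptors that bind the core AGGTCA, so the windows from 250 bases before to 50 bases after the gene start were searched for it on both strands. RefSeq windows (GRCm38.p6) were found for 7 members, that is all but Fgfr1 and Spry4. They are placed by RefSeq starts, which differ from the GENCODE starts above for Fgf2, Fgfr4 and Spred1. The core was in 2 of the 7, and in 16.3% of all 32851 windows of the same length. The windows of these 2 members are shown with the core in capitals, and that of Fgfr4 is shown because this receptor is the member most restricted to a single cell class below.
Fgf7 (chr2:126034408-126034707, plus strand): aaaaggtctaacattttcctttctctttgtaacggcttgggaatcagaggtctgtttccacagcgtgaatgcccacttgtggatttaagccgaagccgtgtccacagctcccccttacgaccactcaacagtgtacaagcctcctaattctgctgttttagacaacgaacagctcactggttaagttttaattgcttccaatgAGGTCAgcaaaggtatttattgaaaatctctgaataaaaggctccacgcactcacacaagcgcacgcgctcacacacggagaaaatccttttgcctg
Spry2 (chr14:105896770-105897069, minus strand): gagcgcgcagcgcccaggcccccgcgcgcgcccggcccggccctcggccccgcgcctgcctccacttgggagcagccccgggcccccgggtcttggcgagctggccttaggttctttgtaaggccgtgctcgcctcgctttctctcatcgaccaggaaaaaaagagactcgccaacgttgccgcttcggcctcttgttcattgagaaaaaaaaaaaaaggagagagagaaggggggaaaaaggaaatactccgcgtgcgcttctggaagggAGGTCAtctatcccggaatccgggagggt
Fgfr4 (chr13:55152568-55152867, plus strand): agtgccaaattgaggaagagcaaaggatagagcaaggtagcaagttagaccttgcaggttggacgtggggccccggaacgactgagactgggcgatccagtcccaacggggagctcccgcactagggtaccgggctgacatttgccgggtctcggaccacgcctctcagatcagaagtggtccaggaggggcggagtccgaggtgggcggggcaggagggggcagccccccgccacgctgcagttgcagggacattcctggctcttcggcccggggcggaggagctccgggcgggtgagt
The core starts 47 bases before the start of Fgf7 and at base 22 after the start of Spry2. No member window held a direct repeat of AGGTCA with NNNNN between the copies (0.00913% of all windows) or of AGTTCA with the same spacing (0.0244%). None held CCGGAAGT, a core of ETS factors (3.89%), TGACGTCA, a core of CREB (1.79%), or TGACTCA, a core of AP-1 (5.20%). These are matches of letters in short windows and not measurements of binding.

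With ATRA+agonist, 10444 barcodes carried 65197625 UMIs in all, and with DMSO vehicle 17394 barcodes carried 109343486, of which 43 barcodes were found in both libraries. After filtering, 6907 and 6953 cells remained, with 9 shared barcodes, and the members had 23196 and 27694 UMIs in them. Cells were grouped in 26 clusters that were named from marker genes, and 8 named classes with at least 100 cells in each library were compared between libraries. These were MuSC-like (415 ATRA+agonist and 531 DMSO vehicle cells), FAP-like (1301 and 1592), tenocyte-like (164 and 501), endothelial-like (2435 and 2257), smooth muscle or pericyte-like (222 and 323), neural (glial)-like (136 and 390), monocyte or macrophage-like (329 and 296) and dendritic-like cells (263 and 152). Levels are UMIs per 1000000 UMIs of the class (CPM), with exact Poisson 95% intervals in parentheses. The intervals cover counting error only and leave out differences between mice. Values of different genes were not compared with each other, since they also depend on how each transcript is captured. Ranks of classes leave out the clusters that were not named.

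Most UMIs of both ligands were in FAP-like cells, although Fgf2 reached its highest level elsewhere. Fgf2, which binds several FGF receptors, was highest in neural (glial)-like cells, at 83.4 CPM over both libraries (73.0 to 94.9), and next highest in FAP-like cells, at 59.97 CPM (57.1 to 63.0). FAP-like cells held 75.3% of all 2114 Fgf2 UMIs. Tenocyte-like cells followed at 33.5 CPM (28.2 to 39.5), and these 3 classes did not overlap in their intervals. Endothelial-like cells had 1 Fgf2 UMI in each library. Fgf7, a ligand of the epithelial form of FGFR2, was at 64.4 CPM in FAP-like cells (61.4 to 67.5), which held 92.4% of its 1848 UMIs. The next named class, perineurial-like cells, was at 22.8 CPM (13.0 to 37.1) from 16 UMIs. An unnamed cluster led by Car3 and Cfd was at 81.4 CPM (58.1 to 111) from 40 UMIs. No Fgf7 UMI was seen in 2435 ATRA+agonist and 2257 DMSO vehicle endothelial-like cells.

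The receptors were highest in MuSC-like cells. Fgfr1 was at 450 CPM there (435 to 466), at 333 CPM in FAP-like cells (327 to 340) and at 312 CPM in tenocyte-like cells (295 to 329). The last pair overlapped, and all other named classes were at 135 CPM or lower. Unnamed clusters were not ranked, and Fgfr1 was at 303 CPM in the cluster led by Car3 and Cfd. It was at 222 CPM in the unnamed cluster led by Tenm2 and Apod. Fgfr4 was nearly restricted to MuSC-like cells, which held 96.4% of its 1315 UMIs at 173 CPM (164 to 183). Perineurial-like cells came next, at 11.4 CPM (4.93 to 22.5), a level 15.2-fold lower that rested on 8 UMIs. Among MuSC-like cells, at least 1 Fgfr4 UMI was seen in 70.8% with ATRA+agonist (66.2% to 75.2%) and in 58.8% with DMSO vehicle (54.4% to 63.0%). The same shares were 0.0821% and 0.0886% among endothelial-like cells, at a lower depth (medians of 2840 and 3334 UMIs per cell, against 7464 and 6463 in MuSC-like cells).

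The feedback regulators differed in the cells where they were highest. Spry1 was led by MuSC-like cells at 195 CPM (185 to 206), followed by smooth muscle or pericyte-like cells at 141 CPM (126 to 157) and endothelial-like cells at 134 CPM (128 to 140), which overlapped. Spry2 was led by smooth muscle or pericyte-like cells at 269 CPM (248 to 291), then by neural (glial)-like cells at 216 CPM (199 to 234) and FAP-like cells at 192 CPM (186 to 197), with no overlap between neighbors. Spry4 (ENSMUSG00000024427, chromosome 18, 38586247 to 38601415) was also highest in smooth muscle or pericyte-like cells. It was at 173 CPM there (156 to 191), which was 4.52-fold over the next class, endothelial-like cells at 38.4 CPM (35.3 to 41.6). Monocyte or macrophage-like cells had 8 UMIs of Spry1 and 0 of Spry4, whereas T or NK cell-like cells had Spry1 at 20.1 CPM (15.1 to 26.2).

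Spred1 and Dusp6 were also seen in myeloid cells. Spred1, a SPRED protein that acts on RAS through neurofibromin, reached 170 CPM among monocyte or macrophage-like cells (159 to 181), a level that overlapped those of neural (glial)-like, smooth muscle or pericyte-like and MuSC-like cells. Its highest level among named classes was in mast-like cells, at 242 CPM (200 to 290) from 116 UMIs. These cells lost the first rank under 5 of 8 alternative filters and clusterings, at 51.2 to 107 CPM. The unnamed cluster led by Tenm2 and Apod had Spred1 at 275 CPM (238 to 316). Dusp6, a phosphatase that acts on the cascade, was led by neural (glial)-like cells at 170 CPM (155 to 186), and endothelial-like cells at 91.4 CPM (86.6 to 96.3) held the largest share of its UMIs (42.8%). The plot of levels shows these patterns side by side in both libraries.

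**Figure D1:**
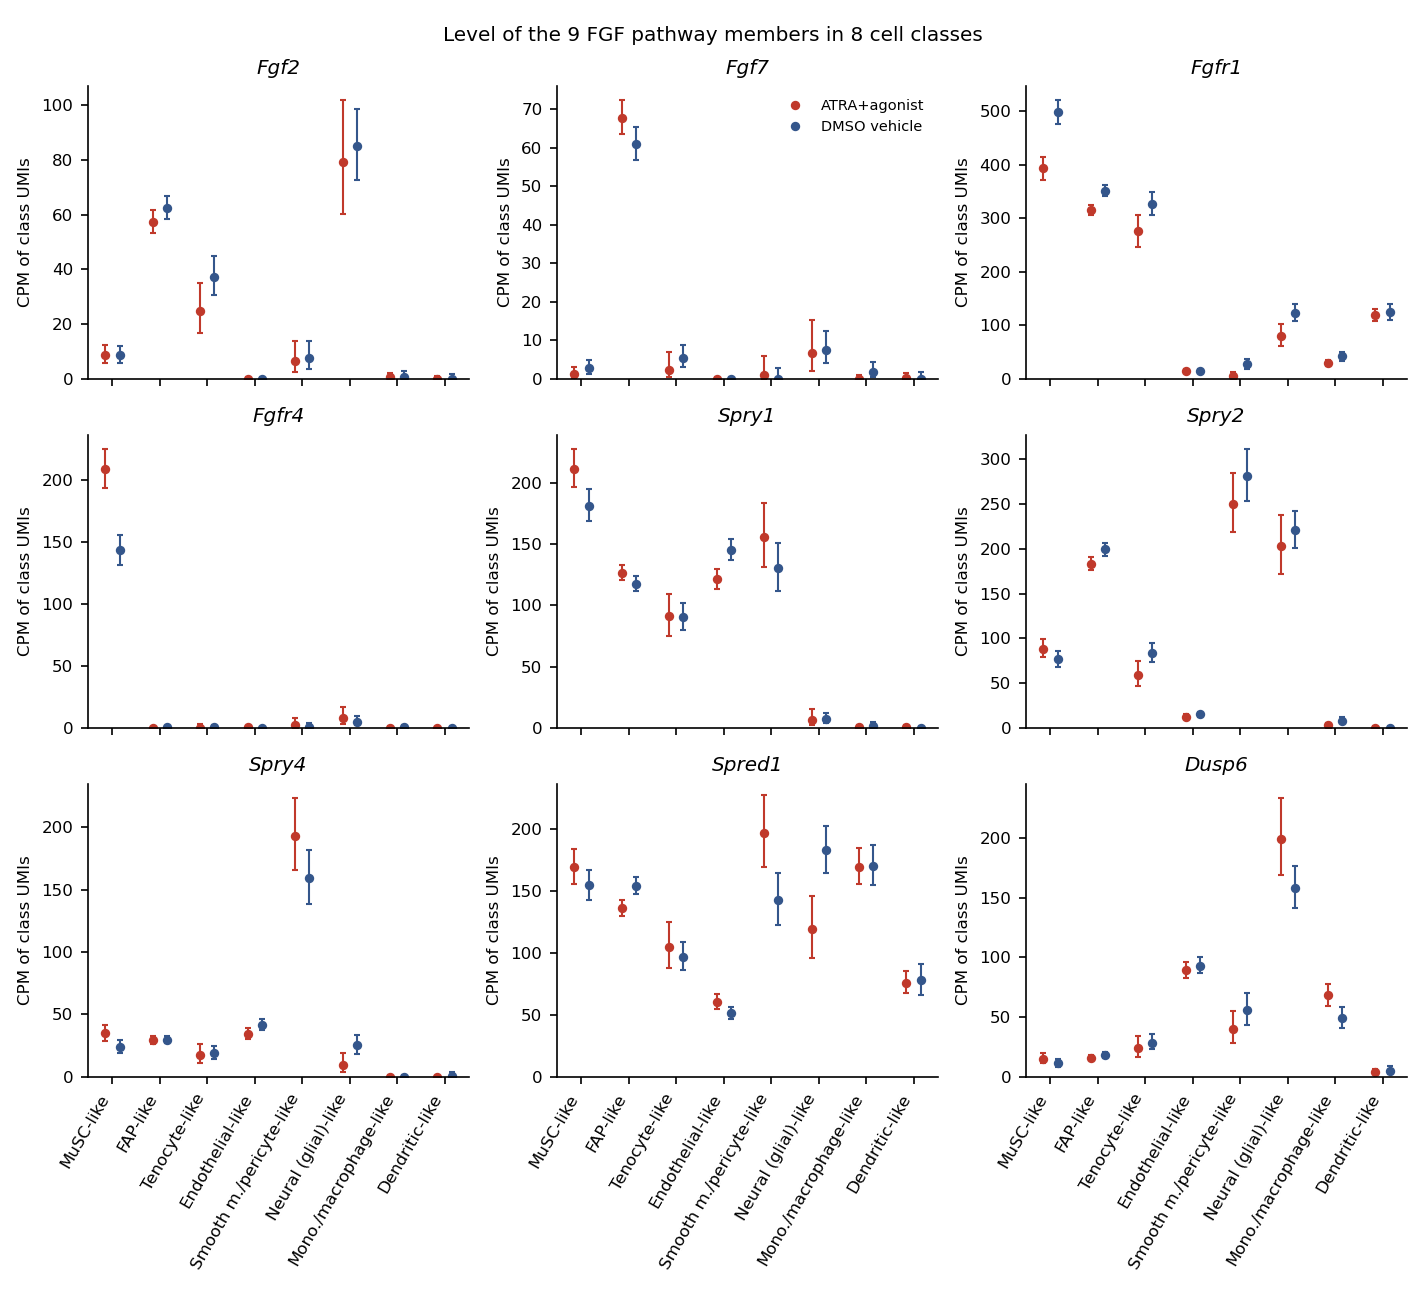
Level of each member (CPM, UMIs per 1000000 UMIs of the class, linear axis from 0) in the 8 classes, with ATRA+agonist in red and DMSO vehicle in blue. Points are sums over the cells of 1 library and bars are exact Poisson 95% intervals. Fgf7 stands out in FAP-like cells, Fgfr4 in MuSC-like cells and Spry4 in smooth muscle or pericyte-like cells in both libraries.

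Over 27 class by library values in 14 classes, the genes whose pattern was most like that of Fgf7 were Dpep1 (Pearson r of 0.97 on log2(CPM + 10)), Cxcl14 and Mme, 3 genes that lead FAP-like clusters here. For Fgfr4 they were Ntn5 (r of 0.99), Edn3 and Nol4. Fgf2 was most like Efs (0.95), Bmper and Reck, and Fgfr1 was most like Mt2 (0.92), Hdlbp and Mt1. Spry1 was most like Tshz2 (0.96), Ebf3 and Snai2, Spry2 most like Pard3 (0.96), Ggt7 and Bmpr1a, and Spry4 most like Phldb2 (0.94), Mprip and Adamts4. Spred1 (Cask, 0.90, then Ocrl and Itpripl2) and Dusp6 (Mertk, 0.84, then Map4k3 and Prag1) had the least close matches. These values are descriptions drawn from 13533 candidate genes, and the points share libraries.

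To determine how the members differed between treated and control muscle, each class was compared between the libraries. Ratios are given as log2 of the ATRA+agonist level divided by the DMSO vehicle level, each with an exact 95% counting interval. Of 72 pairs of member and class, 45 had at least 50 UMIs. A log2 ratio at or past 0.5 was called higher and one at or past -0.5 was called lower. By this rule 2 values were higher and 5 were lower. Over all genes compared in a class, 4.48% to 9.82% were called higher and 5.25% to 12.5% lower. Counting intervals lay above 0 for 9 of the 45 values, below 0 for 12 and held 0 for 24. No share over all genes is given for these intervals.

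In MuSC-like cells the receptors differed in opposite directions. Fgfr4 was at 209 CPM with ATRA+agonist (194 to 225) and at 143 CPM with DMSO vehicle (132 to 156), a log2 ratio of 0.54 (0.38 to 0.71). Fgfr1 was at 393 CPM (372 to 415) against 499 CPM (477 to 521), a log2 ratio of -0.34 (-0.44 to -0.24). The counting intervals of the libraries did not overlap for either receptor, and both signs were kept under 16 of 16 alternatives. Fgfr1 was short of the call, and the call of Fgfr4 was kept under 14 of 16 alternatives and lost with no maximum of genes (0.46) and after thinning (0.39). For thinning, cells were cut to 1000 UMIs and those with fewer were left out. A UMI of Fgfr4 was then seen in 18.2% with ATRA+agonist (14.6% to 22.3%) and in 13.0% with DMSO vehicle (10.3% to 16.2%), so that the intervals overlapped. Thinned shares for Fgfr1 were 29.4% (25.1% to 34.1%) and 35.0% (31.0% to 39.3%). The MuSC-like class comprised a main cluster (354 and 493 cells) and a smaller one of low depth (61 and 38 cells). The log2 ratio of Fgfr1 was -0.30 and -1.32 in them. That of Fgfr4 was 0.56 and 0.66, and the second value rested on 32 and 10 UMIs with an interval that held 0.

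All 5 feedback members had a ratio above 0 in MuSC-like cells, with a median of 0.22 against 0.04 over all 9318 genes compared. Spry4 was at 35.0 CPM (28.9 to 42.0) and 23.9 CPM (19.4 to 29.3), a log2 ratio of 0.55 (0.14 to 0.95) from 117 and 95 UMIs that stayed past the call under 14 of 16 alternatives. Spry1 was at 212 CPM (196 to 228) and 181 CPM (168 to 195), a log2 ratio of 0.22 (0.07 to 0.37). The Spry4 intervals of the libraries overlapped at their edges and those of Spry1 were just apart. The share of cells with a Spry1 UMI was 65.5% (60.8% to 70.1%) against 55.9% (51.6% to 60.2%), and 18.0% (14.4% to 22.1%) against 14.7% (11.8% to 18.0%) after thinning. Intervals held 0 for Spry2 (0.21), Spred1 (0.13) and Dusp6 (0.43, 51 and 45 UMIs). Fgf2 was at 8.68 CPM and 8.57 CPM from 29 and 34 UMIs. Among the 8 members compared in MuSC-like cells, 2 were called higher and 0 lower, beside 9.28% and 6.36% of all genes.

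Immediate early genes, which are induced through the same kinase cascade and by tissue dissociation, were summed beside these values. In MuSC-like cells the 12 listed genes were at 19407 CPM with ATRA+agonist and 14002 CPM with DMSO vehicle, a log2 ratio of 0.47, and 4 of 12 were at or above 0.5. In smooth muscle or pericyte-like cells they went the other way, at 13487 CPM against 18001 CPM, with 5 of 11 at or below -0.5. In the remaining 6 classes the sum had a log2 ratio from -0.03 to 0.32. In MuSC-like cells the summed markers of red blood cells (5 of 5 detected) were at 289 CPM and 864 CPM, those of neutrophils (7 of 7) at 1.496 CPM and 123 CPM, and those of smooth muscle cells or pericytes (8 of 9) at 921 CPM and 677 CPM. The part of these differences in the members' values was not tested.

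**Figure D2:**
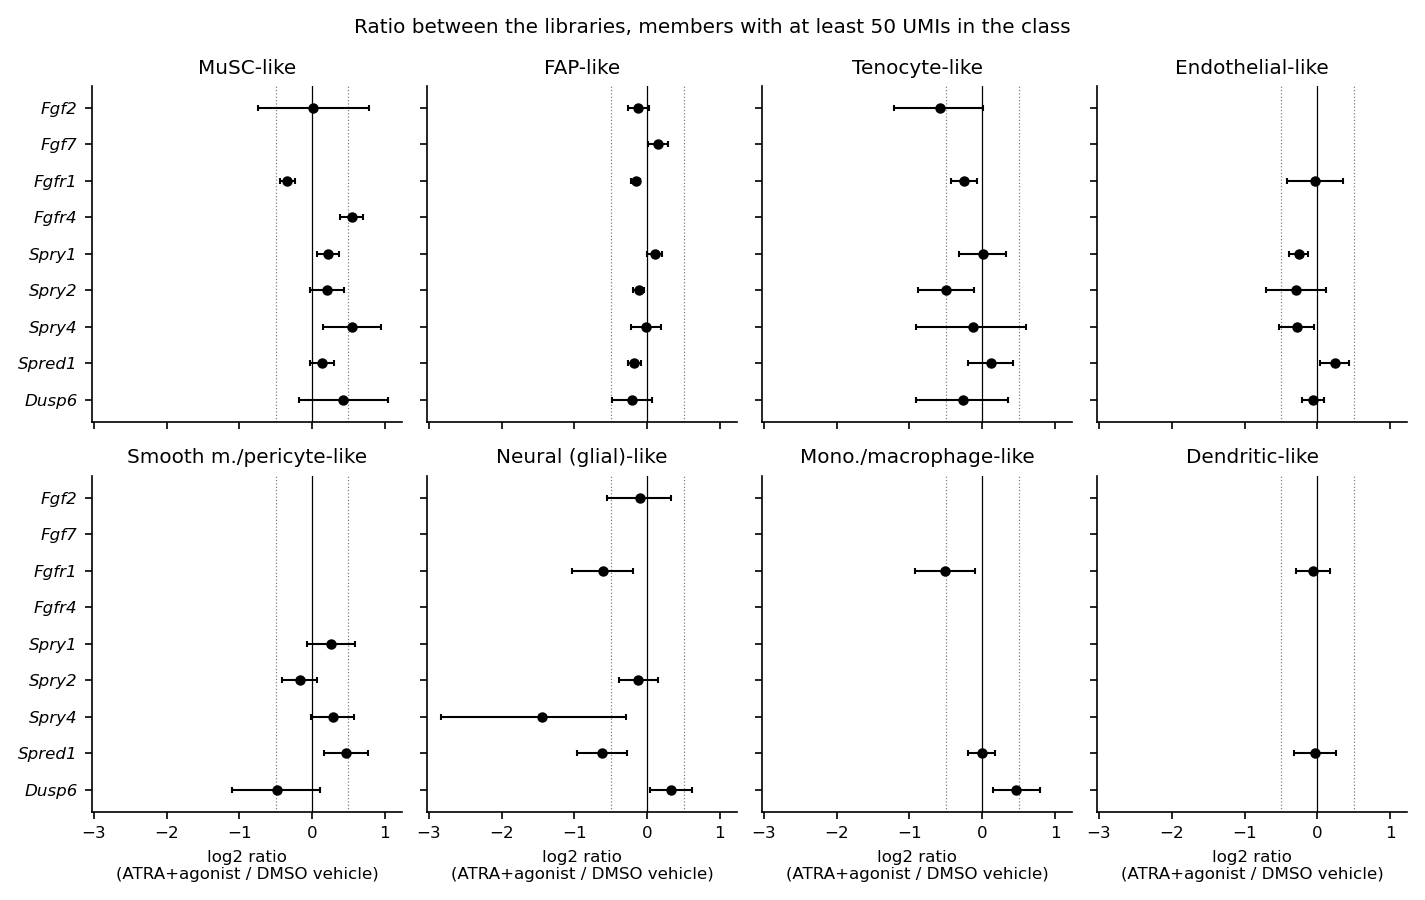
Log2 ratio of ATRA+agonist over DMSO vehicle for each member with at least 50 UMIs in a class (points) with exact 95% counting intervals (bars), in 1 panel per class. The solid line marks 0 and the dotted lines mark -0.5 and 0.5. Fgfr4 and Spry4 lie past 0.5 in MuSC-like cells, and Fgfr1 lies below 0 in all 7 panels where it is plotted.

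Fgfr1 had a ratio below 0 in all 7 classes where it was compared, from -0.61 in neural (glial)-like cells to -0.03 in endothelial-like cells, where the sign turned under 5 of 16 alternatives. The interval lay below 0 in 5 of the classes. After thinning, the values were 0.01 in FAP-like, -0.04 in tenocyte-like and -0.06 in neural (glial)-like cells. They were further below 0 in the other classes, at -0.48 in MuSC-like, -0.33 in endothelial-like, -0.41 in dendritic-like and -1.23 in monocyte or macrophage-like cells. In FAP-like cells it was at 315 CPM (306 to 325) and 352 CPM (342 to 362), a log2 ratio of -0.16 (-0.22 to -0.10), and in tenocyte-like cells at 275 CPM (247 to 306) and 327 CPM (307 to 349), a log2 ratio of -0.25 (-0.43 to -0.07). The monocyte or macrophage-like value of -0.51 (29.5 CPM and 41.9 CPM) was past the call, but turned to 0.24 with no doublet removal and to 0.30 with cells assigned by their own markers. Smooth muscle or pericyte-like cells had 5 and 36 Fgfr1 UMIs, too few for a call. In the monocyte or macrophage-like class 0 of 3 members were called higher and 1 lower, beside 7.43% and 5.38% of all genes. In dendritic-like cells 0 of 2 were called in either direction, beside 9.82% and 5.62%, with Fgfr1 at -0.06 and Spred1 at -0.03.

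In endothelial-like cells no member was past the call, and the counting intervals of Spry1 and Spry4 lay below 0 and that of Spred1 above 0. Spry1 was at 122 CPM (114 to 130) and 145 CPM (137 to 154), a log2 ratio of -0.26 (-0.39 to -0.13). Spry4 was at 34.5 CPM (30.3 to 39.1) and 41.9 CPM (37.5 to 46.7), a log2 ratio of -0.28 (-0.52 to -0.04). Spred1 was at 60.6 CPM (55.1 to 66.6) and 51.4 CPM (46.5 to 56.6), a log2 ratio of 0.24 (0.04 to 0.44). These 3 signs were kept under 16 of 16 alternatives. Intervals held 0 for Spry2 (-0.29) and Dusp6 (-0.06), and the sign of Dusp6 turned under 4 of 16 alternatives. The median of the 5 was -0.26 against 0.08 over all 11163 genes, and 0 of 6 members were called in either direction, beside 8.39% of genes called higher and 5.25% called lower.

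Within the class, Spry4 differed in opposite directions between clusters. In the cluster led by Aqp1 and Kdr (1576 ATRA+agonist and 718 DMSO vehicle cells), Spry4 was at 38.0 CPM and 75.9 CPM, a log2 ratio of -0.998 (-1.28 to -0.71). In the cluster led by the interferon-response genes Cd274 and Gbp4 (79 and 958 cells) it was at 62.6 CPM and 26.4 CPM, a log2 ratio of 1.24 (0.45 to 1.96), which rested on 19 UMIs with ATRA+agonist. These clusters took different shares of the class in the libraries, and the difference between clusters was not tested. In the Aqp1 and Kdr cluster Dusp6 was at 93.7 CPM and 126 CPM, a log2 ratio of -0.43 (-0.63 to -0.23), and Spry1 was at 134 CPM and 160 CPM, a log2 ratio of -0.26 (-0.43 to -0.08). Spry2 was at -0.59 there (-1.13 to -0.05) and Spred1 at 0.13 (-0.14 to 0.41). Spry1 was also lower in the Cd274 and Gbp4 cluster (119 CPM and 177 CPM, -0.58, -1.11 to -0.10). It went the other way in the cluster led by Rflnb and Unc45b (660 and 378 cells). There it was at 106 CPM and 71.8 CPM (0.56), with an interval that held 0 (-0.09 to 1.25). The cluster led by Sema3g and Nebl had less Spry1, at 32.0 CPM (23.8 to 42.0) over both libraries against 142 CPM (134 to 151) in the Aqp1 and Kdr cluster. In the Sema3g and Nebl cluster the log2 ratio of Spry1 was 0.16 (-0.74 to 1.02).

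**Figure D3:**
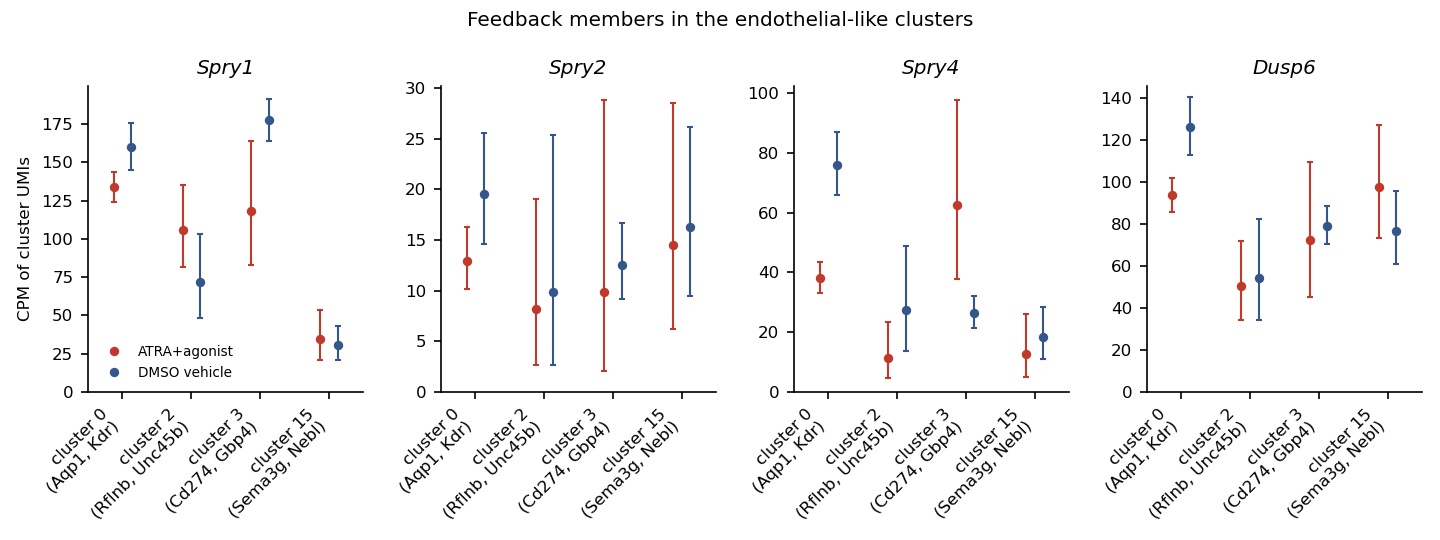
Level (CPM of cluster UMIs) of Spry1, Spry2, Spry4 and Dusp6 in the 4 endothelial-like clusters with at least 50 cells per library, with ATRA+agonist in red, DMSO vehicle in blue and exact Poisson 95% intervals as bars. Spry4 is lower with ATRA+agonist in cluster 0, led by Aqp1 and Kdr (38.0 against 75.9 CPM), and higher in cluster 3, led by Cd274 and Gbp4 (62.6 against 26.4 CPM).

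In FAP-like cells every member was within the call. Fgf7 was at 67.8 CPM (63.4 to 72.4) and 61.0 CPM (56.8 to 65.3), a log2 ratio of 0.15 (0.01 to 0.29) that became -0.04 after thinning. Fgf2 was at 57.4 CPM and 62.6 CPM, a log2 ratio of -0.12 whose interval held 0. Spry1 was at 126 CPM and 118 CPM (0.10, 0.00 to 0.20, and 0.44 after thinning). Spry2 (-0.12, -0.20 to -0.04) and Spred1 (-0.18, -0.27 to -0.09) were lower, and intervals held 0 for Spry4 (-0.02, and -0.95 after thinning) and Dusp6 (-0.21). Of 8 members 0 were called in either direction, beside 4.48% of all genes called higher and 8.34% called lower.

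The FAP-like clusters differed in their levels of the members. Fgf2 was highest in the cluster led by Sema3c and Pi16, at 142 CPM over both libraries (133 to 152), against 35.3 CPM (32.2 to 38.7) in the cluster led by Cxcl14 and Smoc2 and 38.8 CPM (34.4 to 43.6) in the cluster led by Gdf10 and Fst. Fgf7 was highest in the Gdf10 and Fst cluster, at 112 CPM (104 to 120), against 49.0 CPM (45.3 to 52.9) in the Cxcl14 cluster and 40.9 CPM (35.9 to 46.4) in the Sema3c and Pi16 cluster. The ligands thus peaked in different FAP-like cells in both libraries. Spry1 was highest in the Cxcl14 cluster, at 171 CPM (164 to 178), and lowest in the Sema3c and Pi16 cluster, at 38.5 CPM (33.7 to 43.9). Spry4 was at 35.9 CPM (32.7 to 39.2) and 8.52 CPM (6.32 to 11.2) in the same clusters. In the Gdf10 and Fst cluster Spry4 was at 34.6 CPM (30.5 to 39.2), which overlapped the Cxcl14 cluster, and Spry1 was at 100 CPM (93.2 to 108). Fgfr1 was highest in the Sema3c and Pi16 cluster at 415 CPM (398 to 431). Between libraries, the Gdf10 and Fst cluster had Fgf7 at 129 CPM with ATRA+agonist and 98.5 CPM with DMSO vehicle (0.39, 0.18 to 0.59) and Fgf2 at 31.7 CPM and 44.2 CPM (-0.48, -0.85 to -0.12).

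**Figure D4:**
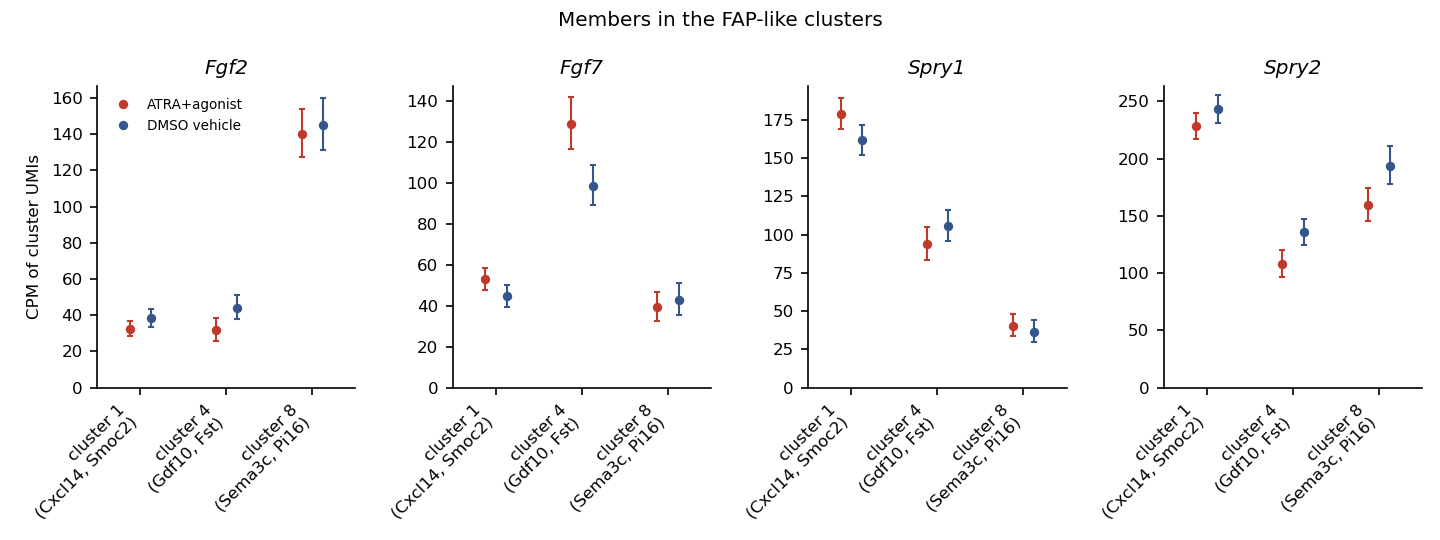
Level (CPM of cluster UMIs) of Fgf2, Fgf7, Spry1 and Spry2 in the 3 FAP-like clusters, with ATRA+agonist in red, DMSO vehicle in blue and exact Poisson 95% intervals as bars. Fgf2 peaks in cluster 8, led by Sema3c and Pi16 (142 CPM over both libraries), Fgf7 in cluster 4, led by Gdf10 and Fst (112 CPM), and Spry1 in cluster 1, led by Cxcl14 and Smoc2 (171 CPM).

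Neural (glial)-like cells had 3 of the 5 lower calls. Spry4 was at 9.24 CPM (3.72 to 19.0) and 25.2 CPM (18.7 to 33.2), a log2 ratio of -1.44 (-2.83 to -0.30) from 7 and 50 UMIs. Among these cells, Spred1 was at 119 CPM (95.6 to 146) and 183 CPM (164 to 202), a log2 ratio of -0.62 (-0.97 to -0.28), and Fgfr1 was at 80.5 CPM (61.6 to 103) and 123 CPM (108 to 139), a log2 ratio of -0.61 (-1.04 to -0.20). Dusp6 went the other way, at 199 CPM (169 to 234) and 158 CPM (141 to 177), a log2 ratio of 0.33 (0.04 to 0.62). Of 6 members 0 were called higher, beside 8.68% of genes, and 3 lower, beside 11.1%. The call of Spry4 was kept under 13 of 13 alternatives (-1.70 to -0.51), that of Fgfr1 under 12 of 15 and that of Spred1 under 8 of 15, with Spred1 at -0.16 when doublets were kept. The class held a larger cluster (89 and 211 cells) and a smaller cluster (47 and 179 cells), which took different shares of it in the libraries. Spry4 was at 4.24 CPM over both libraries in the larger cluster (1.55 to 9.22) and at 38.4 CPM in the smaller cluster (28.6 to 50.5), with log2 ratios of -0.04 and -1.28 whose intervals held 0. Spred1 was at -0.19 (-0.71 to 0.31) and -0.71 (-1.22 to -0.23) in these clusters, and Fgfr1 at -0.50 (-1.05 to 0.03) and -0.79 (-1.54 to -0.10). The 9 markers of monocytes and macrophages, all detected, summed to 285 CPM with ATRA+agonist and 2105 CPM with DMSO vehicle in this class. Markers of red blood cells were at 318 CPM and 1051 CPM. The part of these cells or transcripts in the values was not tested.

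Smooth muscle or pericyte-like cells, the class with the highest Spry2 and Spry4, had no call. Spred1 was at 197 CPM (169 to 227) and 142 CPM (123 to 164), a log2 ratio of 0.47 (0.16 to 0.77), just short of the limit. Dusp6 was at 39.7 CPM and 55.6 CPM from 37 and 73 UMIs, with a log2 ratio of -0.48 whose interval held 0. Spry4 was at 193 CPM and 159 CPM (0.28, -0.01 to 0.58), Spry1 at 156 CPM and 130 CPM (0.26, -0.07 to 0.59) and Spry2 at 250.2 CPM and 282 CPM (-0.17, -0.41 to 0.07). Of 5 members 0 were called in either direction, beside 9.78% of all genes called higher and 11.0% called lower.

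In tenocyte-like cells Fgf2 was called lower, at 24.8 CPM (16.9 to 35.2) and 37.2 CPM (30.5 to 44.8). Its log2 ratio was -0.58 from 31 and 110 UMIs, its interval held 0 (-1.21 to 0.0037), and the call was lost after thinning (-0.36). The summed markers of FAPs (9 of 9 detected) were at 25016 CPM and 18393 CPM in this class and those of red blood cells (5 of 5) at 308 CPM and 1063 CPM, and their part in the value was not tested. Spry2 was at 59.2 CPM (46.5 to 74.4) and 83.4 CPM (73.4 to 94.5), a log2 ratio of -0.49 (-0.89 to -0.11), just short of the limit, while Spry1 was alike in both libraries at 91.3 CPM and 90.5 CPM. Of 7 members 0 were called higher, beside 8.29% of all genes, and 1 lower, beside 12.5%. Dusp6 of monocyte or macrophage-like cells was at 68.2 CPM (59.5 to 77.7) and 49.2 CPM (41.1 to 58.5). Its log2 ratio was 0.47 (0.15 to 0.80), but -0.56 after thinning, which left fewer UMIs behind the value. Spred1 was at 169 CPM and 170 CPM in these cells.

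Classes with fewer than 100 cells in a library entered no call. Some of their larger differences between libraries are given here as a description, and other ratios of these classes are left out. Spry2 in T or NK cell-like cells was at 29.1 CPM (61 UMIs in 19 of 311 cells) and 107 CPM (69 UMIs in 16 of 95 cells). The 10 cells with the most Spry2 UMIs held 82.0% and 91.3% of these UMIs. Spry1 went the other way in this class, at 23.9 CPM from 50 UMIs and 7.78 CPM from 5 UMIs (1.62, 0.30 to 3.30). Spred1 in perineurial-like cells was at 47.0 CPM (21.5 to 89.1) from 9 UMIs in 8 of 86 cells and at 175 CPM (140 to 215) from 89 UMIs in 40 of 144 cells.

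The other genes of the pathway were read from a list of 79, of which 78 were in the files. In MuSC-like cells 47 listed genes had at least 50 UMIs, and 3 were called higher and 5 lower, beside 9.28% and 6.36% of all genes, so that the counts were near those over all genes. Gpc6, a heparan sulfate proteoglycan of the cell surface, was at 109.5 CPM and 63.0 CPM, a log2 ratio of 0.80 (0.56 to 1.03). Fgfrl1, a receptor without a kinase, and Fgf11 were past the limit at 0.58 and 0.55 from 52 and 58 UMIs, with intervals that held 0. Il17rd, a membrane inhibitor of FGF signaling also known as Sef, was lower at 14.4 CPM against 30.5 CPM (-1.09, -1.60 to -0.59). Flrt2 (-0.93), Spred3 (-1.23), Gpc3 (-1.70) and Myc (-0.51) were the other genes called lower. Of the 11 other feedback regulators compared, 0 were called higher and 3 lower, with a median of -0.17.

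In FAP-like cells 57 listed genes were compared and 3 were called in each direction, near the 4.48% called higher and 8.34% called lower over all genes. Fgf1 was at 25.3 CPM and 16.6 CPM (0.61, 0.36 to 0.86). Fgf12 was at 16.0 CPM and 8.23 CPM (0.96, 0.62 to 1.30), and Fgf14 was at 0.55 with an interval that held 0. Fgf12 and Fgf14 belong to the FGF homologous factors, which stay inside the cell. Fgf10, a secreted ligand of FGFR2, was at 38.8 CPM and 27.8 CPM (0.48), just short of the limit. Fgf9 (-2.07, 10 and 42 UMIs), Klb (-1.34, 27 and 68 UMIs) and Myc (-1.06) were called lower. In endothelial-like cells 44 were compared, and 2 were called higher and 4 lower, beside 8.39% and 5.25% of all genes. Fgf9, a secreted ligand, was at 57.4 CPM and 36.1 CPM (0.67, 0.45 to 0.89) and Gpc4 was at 45.8 CPM and 31.7 CPM (0.53). Fgf1 (-0.83), Fgfr3 (-0.57), Sdc4 (-0.74) and Dusp10 (-0.54) were lower.

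The whole list was also read in other classes, and its ligand group also holds FGF homologous factors. In monocyte or macrophage-like cells 5 of 38 listed genes were called higher and 1 lower, beside 7.43% and 5.38% of all genes. In dendritic-like cells 2 of 35 were higher and 5 lower, beside 9.82% and 5.62%. In tenocyte-like cells 4 of 48 were higher and 10 lower, beside 8.29% and 12.5%. Fgf13, an FGF homologous factor, was at 47.3 CPM and 9.23 CPM (2.36, 1.73 to 3.04) in the monocyte or macrophage-like class and at 26.0 CPM and 64.2 CPM in dendritic-like cells (-1.30, -1.70 to -0.91). Fgf9 was at 76.8 CPM and 36.8 CPM in tenocyte-like cells, a log2 ratio of 1.06. Fgfr2, whose epithelial form binds Fgf7, was at 126 CPM and 211 CPM in tenocyte-like cells (-0.74) and at 98.3 CPM and 133 CPM in FAP-like cells (-0.43). The counts are per gene and do not tell the forms of this receptor apart. Fgfr2 was also present in endothelial-like cells, at 108 CPM and 122 CPM.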

How the data were processed

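RNA of hindlimb muscle cells was measured in 2 droplet libraries. The authors deposited raw UMI counts (genes by barcodes) from Cell Ranger 7.2.0 with the mm10 (GRCm38) genome. The annotation release and the use of intronic and antisense reads were not given in the sources used here. The extraction protocol and quantifier in the labels match the study's bulk RNA-Seq methods and were not taken for these libraries.

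Cells with 300 to 5000 genes, under 20% mitochondrial UMIs and under 0.25% Hbb UMIs were kept, and the 7.5% with the highest doublet score in each library were removed. The score was the share of artificial doublets (20% of the merged cells) among the nearest 1% of cells. Counts scaled to 10000 per cell were clustered by Louvain at a resolution of 0.8 (2000 genes, 30 components, 20 neighbors), with the members and the listed pathway and immediate early genes left out of the clustering. Clusters were named "-like" from at least 3 markers with 10 UMIs and a 2-fold higher level (10 CPM added). UMIs were summed per library and class. A call is a log2 ratio at or past 0.5 with at least 50 UMIs, in classes with 100 or more cells in each library, and no p-value was computed. Levels over both libraries were ordered over named classes with at least 100 cells. The ratio and its interval were tried on simulated independent Poisson counts. This checked the calculation only, since differences between mice and between cells were not simulated. Python 3.11.15, numpy 2.4.6, scipy 1.17.1, scikit-learn 1.9.0 and igraph 0.11.9 were used. Alternatives were other filters, doublet rates, resolutions, scalings and minimum UMIs, and thinning to 1000 UMIs. Cells with fewer than 1000 UMIs were left out of thinning. In endothelial-like cells this kept 1959 of 2435 with ATRA+agonist and 2031 of 2257 with DMSO vehicle. Named genes were the members, the 3 genes most like each, listed pathway genes past the call in MuSC-like, FAP-like or endothelial-like cells, and ligands or receptors with at least 100 UMIs in a class. The members and all lists were chosen with earlier results of these data known. A result for the adaptors and kinases of the pathway list is not reported here.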

Additional observations from a re-analysis of the deposited data

Results flagged for a closer look

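Members whose counting intervals lay on opposite sides of 0 in different cell classes were looked at again. Spry1 was at -0.26 in endothelial-like cells, 0.10 in FAP-like cells and 0.22 in MuSC-like cells (log2 ratios of ATRA+agonist over DMSO vehicle). Spry4 was at -0.28 in endothelial-like cells and 0.55 in MuSC-like cells, and at -1.44 in neural (glial)-like cells. Spred1 was at 0.24 in endothelial-like cells, -0.18 in FAP-like cells, -0.62 in neural (glial)-like cells, with smooth muscle or pericyte-like cells at 0.47. With 1 library per group, the difference between classes was not tested.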

How the results depend on the processing

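The 45 log2 ratios were recomputed under 16 alternatives, which gave 688 values. Of these 662 lay within the counting interval first given, and 28 of the 45 ratios never changed sign. The count of member and class values called higher, 2 at first, was 4 when doublets were kept and 6 with no hemoglobin filter. It was 1 with no maximum of genes and 5 as a mean over cells. The count called lower, 5 at first, was 3 when 15% of cells were removed as doublets and 3 with cells assigned by own markers. It was 10 after thinning to 1000 UMIs and 9 with a minimum of 50 cells per library, an alternative chosen after seeing the data. The number of values compared changed with some settings, and the shares over all genes were not recomputed for them. These counts alone therefore do not describe a change in the members. For thinning, the minimum of 50 UMIs applied to the counts before thinning. The thinned calls therefore rest on fewer UMIs than the others. Fgfr1 in monocyte or macrophage-like cells reversed to 0.24 when doublets were kept and to 0.30 with cells assigned by own markers. Medians of the feedback members stayed within their limits. Spred1 in mast-like cells, 242 CPM at first, was at 96.8 when doublets were kept, 100.3 when 15% were removed, 51.2 with a 10% mitochondrial limit, 82.3 with a minimum of 500 genes and 107 at resolution 0.4. The causes were not tested. Depth limits the low members most, with 57 UMIs behind Spry4 in neural (glial)-like cells. No paired analysis was possible because each group holds 1 library, and no library could be left out.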
